A study of Rattus norvegicus with 24 samples.

Results

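The complement and coagulation genes of the rat skeletal muscle transcriptome are described here in 24 libraries. Members were the rows of the deposited expression table that carry the identifier of the KEGG pathway of complement and coagulation cascades, which gave 77 of 21067 genes. Of these, 56 had a mean of at least 0.1 FPKM over the 24 libraries and were tested among 14772 genes, and 21 lay below that level and were not tested. FPKM, fragments per kilobase of transcript scaled to the mapped fragments of a library, is the measure of level throughout. The libraries were made from poly(A) mRNA of the quadriceps femoris of Sprague-Dawley rats, 1 library per rat and 6 rats in each of 4 groups. The rats were 6 weeks old at the start and each group held males and females in equal number, and the labels do not give the sex of a library.

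The control group (labelled blank) was fed normally and did no treadmill training. The treadmill group trained on a treadmill for 7 weeks with rising load and then ran to exhaustion. Catgut group 1 had the same training and exhaustion run after embedding of absorbable catgut thread at the acupoints Bai Hui, Qian Shen, Han Gou, Qiang Feng, Yang Wa and Xie Qi. Catgut group 2 had these acupoints plus Fei Shu. All groups were of the same strain, and since the 3 trained groups also ran to exhaustion, training and exhaustion cannot be told apart. The muscle surface was rinsed of blood before freezing. The labels give quadriceps muscle as the tissue, while their extraction text speaks of an adipose type. The 7 marker genes of skeletal muscle found in the table summed to between 79080 and 109900 FPKM per library.

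Complement is a system of plasma proteases and receptors in which the classical, lectin and alternative routes meet at C3, whose cleavage marks targets for uptake and opens the way to the membrane attack complex. Coagulation is a second protease cascade, in which tissue factor and the contact system lead to thrombin and thrombin turns fibrinogen into fibrin, and plasmin dissolves the clot. Most of the soluble proteins of both cascades are made by hepatocytes and reach muscle through the blood. Macrophages, fibroblasts, adipocytes and endothelial cells in muscle make others, such as C1q, C1r, C1s, factor D, von Willebrand factor and the urokinase and tissue plasminogen activators.

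The members fell into 2 sets when their levels were set beside those of Alb, which encodes serum albumin, the main hepatocyte product and no member of the pathway. A member was counted as following Alb when the Pearson correlation of log2(FPKM + 1) over the 24 libraries was above 0.8. By this rule 24 of 77 members followed Alb, 12 of the 56 that were tested and 12 of the 21 that were not. Among the 14772 genes tested in the whole series, 66 genes outside the pathway also followed Alb. The split is a description of measured levels and carries no test. Just inside the limit lay C4bpb, the beta chain of the C4b-binding protein, with r = 0.809. Just outside lay C4bpa, its alpha chain, with r = 0.759, Serpinf2, the plasmin inhibitor alpha2-antiplasmin, with r = 0.757, and Cfi, the C3b- and C4b-cleaving protease factor I, with r = 0.748.

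The followers were mainly soluble plasma proteins of the clotting cascade. They took in 8 of 13 clotting factors, namely F2 (prothrombin), F7, F9, F10, F13b and the fibrinogen chains Fga, Fgb and Fgg. Among the terminal components, C5, C8a, C8b and C9 followed (4 of 7), and among the contact and kinin genes F11, F12 and Kng1, the kininogen gene (3 of 6). Of the anticoagulants, Serpina1 (alpha1-antitrypsin), Serpinc1 (antithrombin), Serpind1 (heparin cofactor II) and Proc (protein C) followed (4 of 9). The fibrinolysis genes Plg (plasminogen) and Cpb2 followed (2 of 8). Only 1 of 11 genes at the start of the classical and lectin routes (Mbl1), 1 of 3 in the alternative pathway and C3 group (C3 itself) and 1 of 10 complement regulators (C4bpb) did so. None of the 7 complement receptors (0 of 7) and none of the 3 thrombin receptors (0 of 3) followed.

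The followers were high in 2 libraries. Alb stood at 134.8 FPKM in control replicate 2, at 226.1 FPKM in treadmill replicate 3 and at 14.35 FPKM in treadmill replicate 2. In treadmill replicates 5 and 6 it was at 2.3 and 3.14 FPKM, and no other library exceeded 0.3604 FPKM. All 24 followers had their 2 highest levels in control replicate 2 and treadmill replicate 3, 18 of them the highest in treadmill replicate 3 and 6 in control replicate 2. The next highest level was in treadmill replicate 2 for 15 of the 24. Summed over the 24 followers, the level was 50.07 FPKM in control replicate 2, 71.52 FPKM in treadmill replicate 3 and 6.699 FPKM in treadmill replicate 2. In the other 21 libraries the sum had a median of 0.8173 FPKM and ran from 0.2879 to 1.955 FPKM. In all 12 catgut libraries, 20 of the 24 followers were at or below 12 counts, the limit of detection used here, and the exceptions were C3, Serpinc1, F2 and C4bpb.

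**Figure D1:**
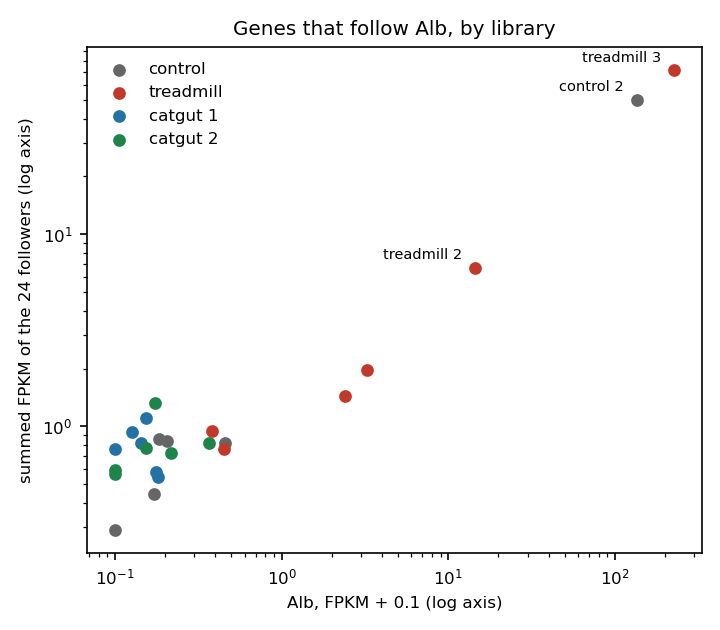
Summed FPKM of the 24 followers against Alb (FPKM + 0.1), both on log axes, 1 point per library and a colour per group. Control replicate 2 and treadmill replicate 3 lie far up, at 50.07 and 71.52 FPKM summed, treadmill replicate 2 lies between them and the rest, and the other 21 libraries lie at or below 1.955 FPKM.

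The levels of the followers were set beside Alb within the libraries that held them. Alb was 1.678 times as high in treadmill replicate 3 as in control replicate 2. For the 12 tested followers the same ratio had a median of 1.454 and ran from 0.8805 (F10) to 1.873 (F12), and for all 24 followers it had a median of 1.209 and ran from 0.7264 to 2.16. Serpina1 stood at 12.34% of the Alb level in control replicate 2, at 11.45% in treadmill replicate 3 and at 13.66% in treadmill replicate 2, on the FPKM scale. C3 stood at 2.521% and 2.517% of Alb in the first 2 of these libraries but at 10.5% in treadmill replicate 2, and Kng1 at 2.522%, 2.04% and 5.6%. These are values of single libraries and have no replicate error.

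Genes of hepatocytes outside the pathway moved in the same libraries. Of 16 such markers besides Alb, 13 had a correlation with Alb above 0.8, among them Ttr (transthyretin, r = 0.992) and Apoc3 (apolipoprotein C-III, r = 0.988). Rgn (r = -0.147), Hpd (r = 0.525) and Cyp2e1 (r = 0.8) did not. For comparison, 66 genes outside the pathway passed the same limit among the 14772 genes tested. The 17 liver markers in the table, Alb included, summed to 299.6 FPKM in control replicate 2, 439.4 FPKM in treadmill replicate 3 and 44.49 FPKM in treadmill replicate 2. In catgut group 1 the sum was 2.986 to 14.69 FPKM and in catgut group 2 it was 6.173 to 11.01 FPKM, with 5 of the 17 markers at 0 in every library of each group. Where the liver-type transcripts in these libraries came from was not tested.

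The correlation rests on those libraries. With Spearman's rank correlation, 0 of the tested members passed 0.8. With the 3 libraries above 10 FPKM of Alb left out, a step added after the data were seen, 2 of the 12 tested followers still passed it, Fga with r = 0.954 and Serpina1 with r = 0.918. In the libraries left, Fga was above 0 only in treadmill replicates 5 and 6 (11 and 14 counts) and catgut 2 replicate 6 (4 counts). Serpina1 was highest there in treadmill replicates 5 and 6 (52 and 57 counts) and control replicate 1 (42 counts), as was Alb. Without the 3 libraries r fell to 0.186 for C3, to 0.133 for F2 and to -0.125 for Kng1.

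**Figure D2:**
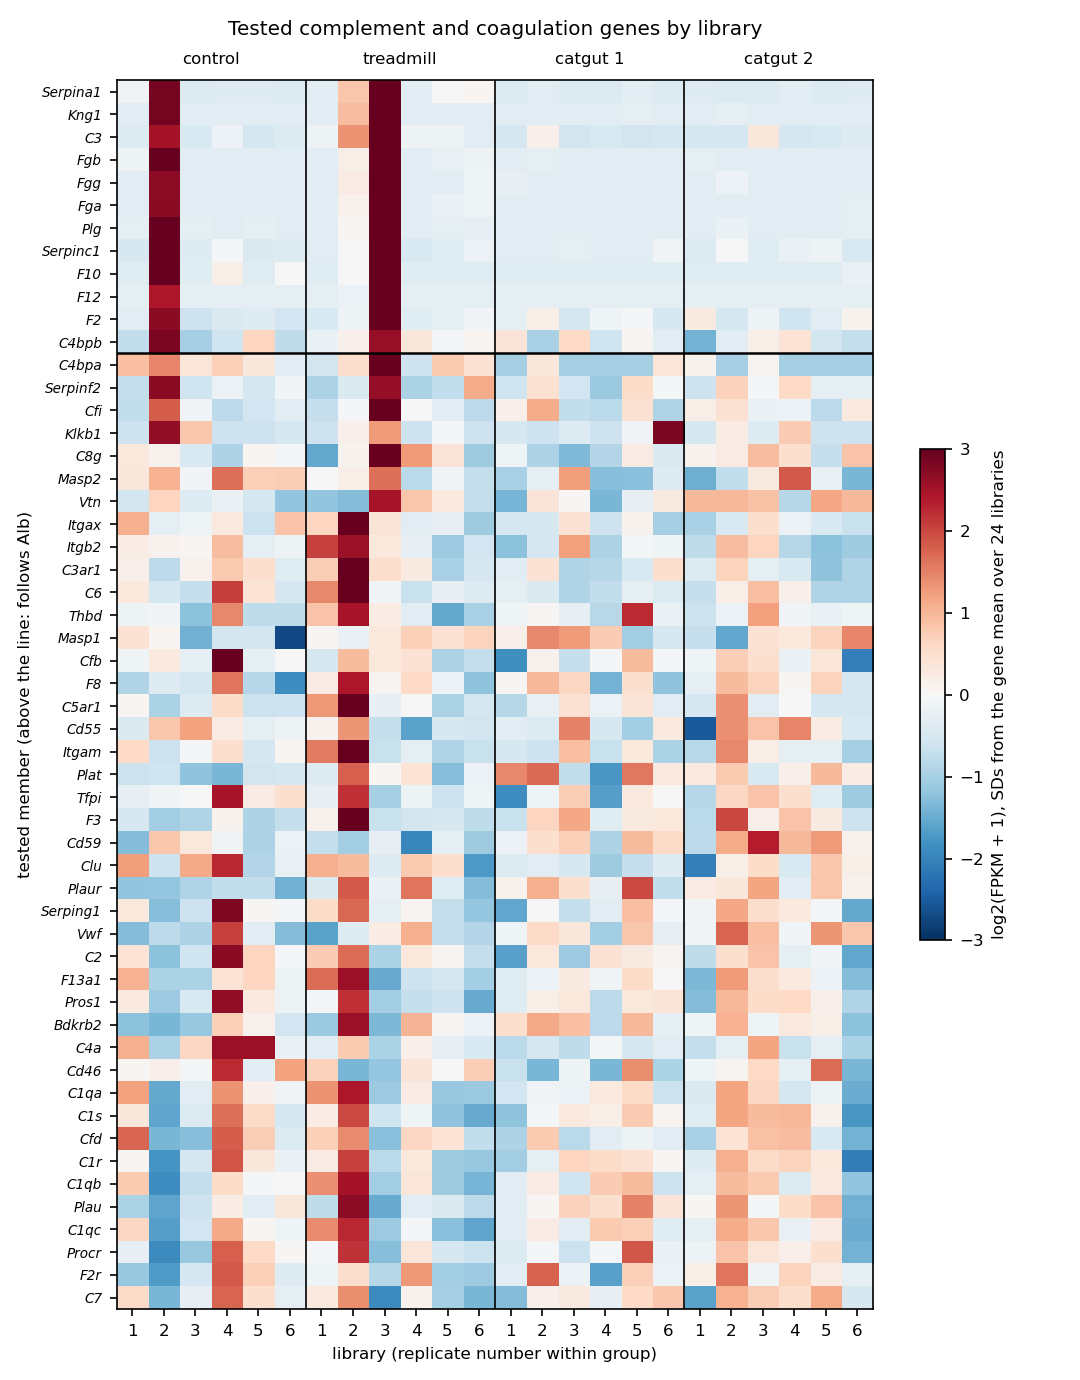
Heat map of 54 of the 56 tested members (rows, ordered by their correlation with Alb, the line dividing the 12 followers from 42 of the others) in 24 libraries (columns, by group and replicate number), coloured by log2(FPKM + 1) in SDs from the mean of the gene, with colours capped at 3 SDs. Control replicate 2 and treadmill replicate 3 stand out among the followers, and treadmill replicate 2 and control replicate 4 among the others.

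The letters of reference promoters were compared between the followers and the other members. RefSeq promoter windows of the GRCr8 build, each 250 bases before to 50 bases after the start, were matched by symbol for 21 of the 24 followers and 31 of the 53 other members. GTTAAT, the core site of the hepatocyte nuclear factor HNF1, was present on either strand in 9 of 21 follower windows (42.9%), in 3 of 31 other windows (9.68%) and in 7.37% of 27457 windows of all genes. The longer GTTAATNAT, which contains the core site, was present in 4 of 21 (19%), 1 of 31 (3.23%) and 0.75% of all. TTGCNNAA, a C/EBP motif, was present in 8 of 21 (38.1%), 7 of 31 (22.6%) and 10.5% of all. TGANTCA, the AP-1 motif, had the opposite order, with 1 of 21 follower windows (4.76%), 9 of 31 other windows (29%) and 7.33% of all. The STAT motif TTCNNNGAA was present in 23.8%, 16.1% and 8.68%. The HNF4 motif CAAAGTCCA and the NF-kappaB motif GGGACTTTC were in 0 member windows. They are rare in all windows too (0.375% and 0.328%), so 0 in so few windows is uninformative. The E-box CACGTG, the ETS motif GAGGAAGT and the TATA motif TATAAA were each in 1 follower window (4.76%) and 1 other window (3.23%). Over all windows their shares were 6.65%, 2.44% and 14.3%. Since the members of either set are few and were divided by measured levels, these shares are descriptions of letters and were not tested.

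The promoters of 4 followers are shown because they hold the HNF1 core site, given in capitals, and because their genes make the fibrinogen alpha and beta chains, prothrombin and plasminogen. They are Fga (chr2:170671919-170672218, plus strand), Fgb (chr2:170700826-170701125, minus strand), F2 (chr3:98065197-98065496, minus strand) and Plg (chr1:50915357-50915656, minus strand), each written 5′ to 3′ along the gene. The core site began 52 bases before the start in Fga, 90 in Fgb, 38 in F2 and 67 in Plg. The window of Fgg, the gene of the fibrinogen gamma chain, did not hold the core site. Over the 10 matches in the 9 follower windows, the distance was 30 to 225 bases.
Fga: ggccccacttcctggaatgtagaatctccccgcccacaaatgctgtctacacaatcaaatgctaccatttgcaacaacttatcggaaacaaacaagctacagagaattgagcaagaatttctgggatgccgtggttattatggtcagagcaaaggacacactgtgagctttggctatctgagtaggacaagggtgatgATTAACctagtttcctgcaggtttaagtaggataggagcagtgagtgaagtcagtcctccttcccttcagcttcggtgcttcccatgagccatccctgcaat
Fgb: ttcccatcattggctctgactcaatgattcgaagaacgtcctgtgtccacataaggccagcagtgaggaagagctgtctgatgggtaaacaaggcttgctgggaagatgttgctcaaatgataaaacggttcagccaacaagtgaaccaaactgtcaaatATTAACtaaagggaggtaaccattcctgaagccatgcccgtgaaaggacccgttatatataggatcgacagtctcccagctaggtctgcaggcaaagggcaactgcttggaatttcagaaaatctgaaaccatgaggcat
F2: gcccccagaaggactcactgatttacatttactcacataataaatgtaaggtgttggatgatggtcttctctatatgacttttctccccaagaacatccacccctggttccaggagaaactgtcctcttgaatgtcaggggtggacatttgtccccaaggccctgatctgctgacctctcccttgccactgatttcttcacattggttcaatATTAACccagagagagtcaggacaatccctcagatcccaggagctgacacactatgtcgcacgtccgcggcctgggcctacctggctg
Plg: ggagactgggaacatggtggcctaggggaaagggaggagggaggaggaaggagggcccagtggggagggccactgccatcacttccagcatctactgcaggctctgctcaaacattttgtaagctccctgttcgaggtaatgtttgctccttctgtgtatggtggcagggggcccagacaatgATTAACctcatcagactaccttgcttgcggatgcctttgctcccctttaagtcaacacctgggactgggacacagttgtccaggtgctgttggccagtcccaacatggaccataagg

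Of the members that do not follow Alb, Plaur (the urokinase receptor, chr1:89181113-89181412, plus strand) is shown beside them because it led the treadmill comparison described below. Its AP-1 motif, in capitals, began 83 bases before the start.
Plaur: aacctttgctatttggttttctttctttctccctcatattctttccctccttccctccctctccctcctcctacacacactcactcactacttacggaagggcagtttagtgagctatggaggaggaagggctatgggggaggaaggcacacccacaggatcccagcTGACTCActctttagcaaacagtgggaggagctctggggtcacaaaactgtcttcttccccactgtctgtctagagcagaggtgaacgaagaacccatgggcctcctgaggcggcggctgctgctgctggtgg

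The 44 tested members that did not follow Alb included the most abundant genes of the pathway in muscle. Clu (clusterin, which holds back the membrane attack complex) had a mean of 157 FPKM over the 24 libraries and Cd59, a membrane-bound inhibitor of the same complex, 78.5 FPKM. Masp1, a protease of the lectin pathway, had 41.7 FPKM, Vtn (vitronectin) 20 FPKM, Cfd (factor D, the adipose protease of the alternative pathway) 17.4 FPKM and Plau (urokinase) 17.2 FPKM. Of all 77 members, 36 were above the limit of detection in every library, and 3 (Serpinb2, Bdkrb1 and LOC100911545) were at or below it in every library.

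Some of these members followed markers of cell types other than muscle fibres across the libraries. Each library was scored by the mean log2(FPKM + 1) of a marker list, and Pearson's r with that score was computed for the 44 members. For the macrophage list (8 genes), 11 of 44 members had r above 0.8 (25%), against 1.38% of all tested genes outside the list. They included C1qa, C1qb and C1qc, the chains of C1q, with C1r, C1s, C5ar1, C6, F13a1, Itgam and Itgb2. Without treadmill replicates 1 and 2, the libraries farthest from the median score, 6 of the 11 were still above 0.8, and r was 0.79 for C5ar1, 0.77 for Itgam, 0.595 for Itgb2 and 0.584 for C6. For the fibroblast list (6 genes) it was 7 of 44 (15.9%, against 1.58%), namely C1qc, C1r, C1s, C7, Procr, Pros1 and Serping1, and 6 of the 7 stayed above 0.8 without the 2 farthest libraries. Cfd was the 1 member of this kind for the adipocyte list and Vwf the 1 for the endothelial list (2.27% each, against 0.0948% and 0.535% of all). Cfi and Serpinf2 were the 2 members with r above 0.8 for the liver list (4.55%, against 0.481%), and without control replicate 2 and treadmill replicate 3 their r was 0.186 and 0.151. No member passed it for the neutrophil, platelet or skeletal muscle lists (0 of 44).

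Single relations, chosen with their values known and therefore given without a p, were as follows over the 24 libraries. C1qa, a macrophage product, had r = 0.943 and Spearman's rho = 0.934 with the macrophage score, r = 0.924 without the 2 libraries farthest from the median score and r = 0.96 within groups. C1s, the protease of the C1 complex, had r = 0.928 and rho = 0.933 with the fibroblast score (0.931 without 2 libraries, 0.935 within groups). Cfd had r = 0.909 and rho = 0.925 with the adipocyte score (0.873 and 0.918). Vwf, which encodes von Willebrand factor, had r = 0.81 and rho = 0.817 with the endothelial score (0.763 and 0.851). C3ar1, the C3a receptor, had r = 0.77 with the macrophage score and r = 0.499 without 2 libraries, so that relation rests on them. In bulk muscle, fewer cells of a type and less RNA per cell cannot be told apart.

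**Figure D3:**
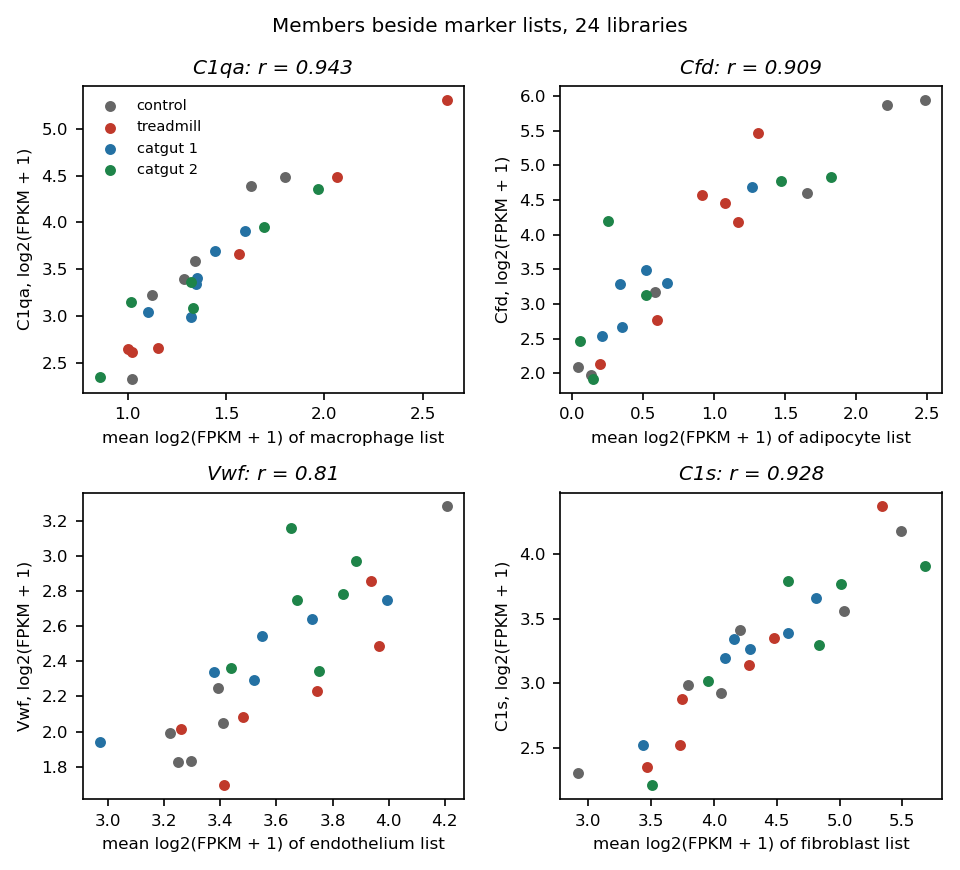
Each panel plots log2(FPKM + 1) of 1 member against the mean log2(FPKM + 1) of a marker list, 1 point per library and a colour per group, for C1qa (macrophage list), Cfd (adipocyte list), Vwf (endothelial list) and C1s (fibroblast list). The 4 groups overlap along each line, and r was 0.943, 0.909, 0.81 and 0.928.

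Beside these lists, 2 libraries held the highest levels of most members that do not follow Alb. Treadmill replicate 2 held the highest level of 20 of the 44 (45.5%), where it held the highest level of 15.3% of all tested genes. Control replicate 4 held the highest of 12 of 44 (27.3%), against 18.3% of all, which is the largest share of all tested genes in any library. Treadmill replicate 2 had the highest macrophage sum of all libraries, 113.7 FPKM, and control replicate 4 the highest endothelial sum, 100.4 FPKM, and adipocyte sum, 30.16 FPKM, with a fibroblast sum of 598.5 FPKM. In treadmill replicate 2, C1qa reached 38.69 FPKM, where the other treadmill libraries lay between 5.127 and 21.4 FPKM. The part of the marker lists in the group comparisons was not tested.

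The treadmill group was compared with the control group to ask how training to exhaustion moved these genes. No member had an adjusted p under 0.05 (0 of 56, where 8 of all 14772 genes tested, 0.0542%, had one), and the smallest was 0.41. DESeq2 also called 0. An unadjusted p under 0.05 was found for 4 members (7.14%, against 9.12% of all genes). Those 4, Plaur, Plat, F3 and Masp1, met the criterion of the study for differential expression (group means that differ by a factor of over 1.5 either way, tested at 0.05 without adjustment), all higher in the treadmill group, and 0 were lower. Of all genes tested, 1.77% met it as higher and 1.08% as lower. None of the 4 follows Alb. The median log2 fold change was 0.301 over the 56 members, 0.67 over the 12 followers and 0.17 over the other 44, beside -0.002 over all genes. The follower value rests largely on treadmill replicate 3 and control replicate 2, which also made the split. It is not evidence apart from Alb, and it enters the median over the 56.

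Plaur (chromosome 1, 81328183 to 81344708), whose product binds urokinase at the cell surface, had 0.9719, 1.257 and 1.481 FPKM as the lowest, median and highest of the 6 control libraries, and 1.072, 1.862 and 4.604 FPKM in the treadmill group. The treadmill mean was 2.55 ± 1.46 FPKM (SD, n = 6) and the control mean 1.26 ± 0.205 FPKM, a difference of 1.01 on the log2 scale (SE 0.303, adjusted p = 0.41). Treadmill replicates 1 to 5 exceeded the highest control library and replicate 6 lay within the control range (exact permutation p = 0.0281). Plaur met the criterion in each of 25 alternative settings, with an adjusted p of 0.0894 to 0.731.

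Plat (chromosome 16, 74098260 to 74122889), tissue plasminogen activator, had 5.004, 7.218 and 7.542 FPKM as lowest, median and highest in the control group and 5.238, 9.357 and 21.27 FPKM in the treadmill group. The log2 fold change came to 0.68 (SE 0.25, adjusted p = 0.488), and 5 of 6 treadmill libraries exceeded the highest control library (exact permutation p = 0.0584). Without treadmill replicate 2, the highest library, the fold change of Plat was 0.46 and no longer met the criterion. Treadmill replicate 2 also decided F3, which encodes tissue factor, the starter of coagulation. F3 stood at 20.12 FPKM there and at 3.045 to 4.903 FPKM in the other treadmill libraries, against 2.578 to 4.865 FPKM in the control group, so the groups overlapped (log2 fold change 0.9, SE 0.4, adjusted p = 0.543). F3 lost the criterion in 14 of 25 alternative settings.

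Masp1 had 10.74, 29.68 and 46.72 FPKM in the control group and 34.92, 45.42 and 52.77 FPKM in the treadmill group as lowest, median and highest. The log2 fold change came to 0.66 (SE 0.3, adjusted p = 0.543), with 3 of 6 treadmill libraries above the highest control library (exact permutation p = 0.0325), and it lost the criterion in 11 of 25 settings. Of the 56 members 40 had a log2 fold change above 0, beside 7343 of all 14772 genes. By role these were 6 of 6 fibrinolysis genes (median 0.56), 5 of 5 complement receptors (0.39), 8 of 9 clotting factors (0.39), 3 of 4 contact and kinin genes (0.69), 4 of 6 anticoagulants (0.22) and 2 of 3 terminal components (0.38). They were also 5 of 9 genes at the start of the classical and lectin routes (0.01), 5 of 10 complement regulators (0.02), 1 of 3 genes of the alternative pathway and C3 (-0.45) and the 1 tested thrombin receptor (0.0016). Members vary together, so these counts are not independent. They include 11 of the 12 followers, whose values rest largely on treadmill replicate 3 and control replicate 2. Each tested complement receptor was highest in treadmill replicate 2. The treadmill median lay below the control median for Itgam (0.1206 against 0.1773 FPKM), Itgb2 and Itgax, and above it for C3ar1 and C5ar1.

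**Figure D4:**
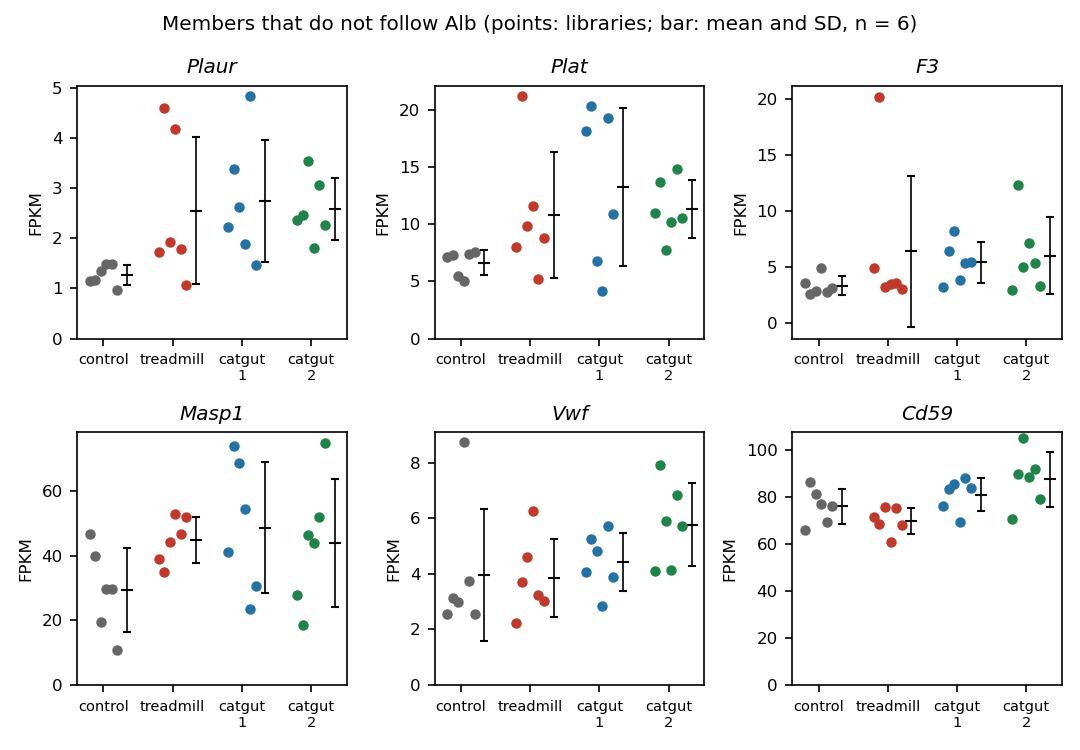
FPKM per library (points) with mean and SD (bars, n = 6) for 6 members that do not follow Alb in the 4 groups. The plot shows 5 of 6 treadmill libraries above the controls for Plaur and Plat, while F3 of the treadmill group is spread by 1 library at 20.12 FPKM, and Cd59 lies highest in catgut group 2, at 70.43 to 105.1 FPKM.

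The number of members meeting the criterion in this comparison moved with single libraries. It was 15 without control replicate 2, which had the highest levels of many followers in its group, and 2 without treadmill replicate 2 and also without control replicate 3, 5 or 6. Without the 3 libraries above 10 FPKM of Alb it was 7, of which 4 were higher and 3 lower in the treadmill group.

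The comparison of catgut group 1 with the treadmill group asked what the embedding changed in trained and exhausted rats. The catgut rats also had ether anaesthesia and needle puncture, and the paper describes no sham group. Embedding cannot be told apart from these. This comparison shares the treadmill libraries with the preceding and the next one, so their results are not independent. No member had an adjusted p under 0.05 (0 of 56, beside 0.0474% of all genes), and DESeq2 called 0 as well. An unadjusted p under 0.05 was found for 13 members (23.2%, against 6.93% of all). By the criterion, 12 members were lower in catgut group 1 and 0 higher, while 1.99% of all genes tested were lower and 1.13% higher. Of these 12, 11 follow Alb (all tested followers but C4bpb), and the other is C6, a terminal component, which makes 1 of the 44 other members. The calls were 5 of 9 tested clotting factors (F2, F10, Fga, Fgb and Fgg), 2 of 4 contact and kinin genes (Kng1 and F12), 2 of 6 anticoagulants (Serpina1 and Serpinc1), and Plg, C3 and C6. F10 and F12 were at 0 in all 6 catgut 1 libraries, and in the treadmill group only replicate 3 was above the limit for them, at 129 and 202 counts. Control replicate 2 and treadmill replicate 3 carried F10 and F12, with means of 0.117 and 0.104 FPKM, past the filter of 0.1 FPKM. The same libraries carried Kng1, Fga, Fgb, Fgg, Plg and Serpinc1 past it. The direction of F2 turned without treadmill replicate 3, to a log2 fold change of 0.21, and with the liver list as a covariate that of F2 came to 0.69 and that of Serpinc1 to 0.77. Since the split used these libraries, this count is not evidence apart from Alb.

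Serpina1 (chromosome 6, 127610243 to 127632265), the inhibitor of neutrophil elastase, had 0.06546, 0.4719 and 25.89 FPKM as lowest, median and highest in the treadmill group, against 0, 0 and 0.09367 FPKM in catgut group 1. In the treadmill group 4 of 6 libraries and in catgut group 1, 0 of 6 were above the limit of detection. The mean of the treadmill group was at least 42.3-fold higher than that of catgut group 1 taken at the limit, and at least 4.9-fold without treadmill replicate 3. Treadmill replicate 2, at 215 counts, gives much of the second bound, where replicates 1, 4, 5 and 6 had 8, 8, 52 and 57. The fitted log2 fold change of -7.29 (SE 1.75, adjusted p = 0.208) does not measure the size, and 4 of 6 catgut 1 libraries lay below every treadmill library (exact permutation p = 0.013). All catgut 1 libraries and treadmill replicates 1 and 4 were at or below 12 counts of Serpina1, so their order is not resolved. Serpina1 met the criterion in 23 of 25 alternative settings.

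For Fgb, the fibrinogen beta chain, treadmill replicate 3 was at 4.373 FPKM and the other treadmill libraries at 0 to 0.2701 FPKM, while catgut group 1 reached at most 0.02198 FPKM. The treadmill mean was at least 11.6-fold higher than that of catgut group 1 at the limit, and at least 1.19-fold without treadmill replicate 3. The second bound for Fgb rests largely on treadmill replicate 2, at 50 counts, where replicates 1, 4, 5 and 6 had 0, 0, 12 and 19. For Kng1 the bound was 11.7-fold, and 1.77-fold without treadmill replicate 3. The second bound for Kng1 rests on treadmill replicate 2 alone, at 133 counts, since replicates 1, 4, 5 and 6 were at 0, and without both high libraries no fold is given because every library was at or below the limit. For Fga, Fgg and Plg the bounds were 10.4-fold, 8.87-fold and 5.91-fold with it, and without it the treadmill mean lay below the limit, so that no bound can be given. Fga and Plg still met the criterion without that library, with 35 and 26 counts in treadmill replicate 2, and Fgg did not. C3 was above the limit in all 6 treadmill and 2 of 6 catgut 1 libraries, with 0.1227, 0.2194 and 5.692 FPKM against 0, 0.02196 and 0.4073 FPKM. The log2 fold change came to -3.98 (SE 1.33, adjusted p = 0.475), 5 of 6 catgut 1 libraries lay below every treadmill library (exact permutation p = 0.0455), and it was -1.28 (adjusted p = 0.914) for C3 without the libraries above 10 FPKM of Alb.

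The count of members meeting the criterion fell from 12 to 7 without treadmill replicate 3 and to 4 without treadmill replicates 2 and 3, both above 10 FPKM of Alb (3 lower and 1, Plau, higher). The 3 lower were Fga, Plg and Serpina1. In the libraries left, Plg was at or below the limit of detection throughout, and Fga exceeded it only in treadmill replicate 6, at 14 counts. The count was 3 with the liver list as a covariate, 3 with DESeq2 and 24 with no filter on low values. The median log2 fold change was -0.44 over the 56 members and -0.21 over the 44 that do not follow Alb, beside -0.01 over all genes. C6 was at 0.1332 ± 0.08741 FPKM in catgut group 1 against 0.7144 ± 0.9246 FPKM for treadmill, and treadmill replicate 2 stood at 2.455 FPKM (log2 fold change -2.26, SE 0.877, adjusted p = 0.574), and it lost the criterion without that library.

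**Figure D5:**
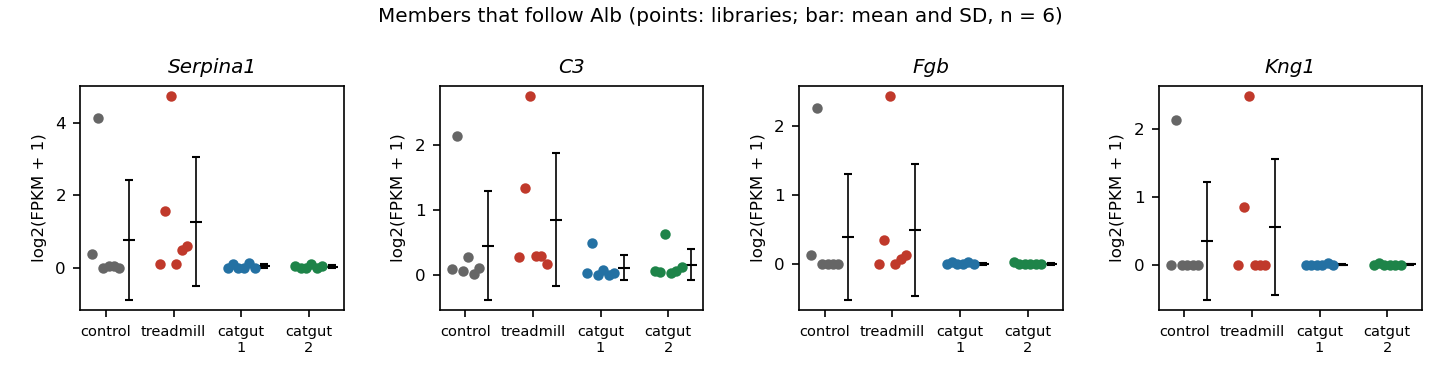
log2(FPKM + 1) per library (points) with mean and SD (bars, n = 6) for Serpina1, C3, Fgb and Kng1 in the 4 groups. In each panel control replicate 2 and treadmill replicate 3 are the highest libraries of their groups, treadmill replicate 2 is the next highest treadmill library (1.506 FPKM for C3), and the catgut libraries lie at or near 0 except for C3, which reached 0.4073 and 0.5494 FPKM in 1 library of each catgut group.

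In catgut group 2 against the treadmill group, 0 of 56 members had an adjusted p under 0.05 (0.237% of all genes did), with 12 members at an unadjusted p under 0.05 (21.4%, against 10.7% of all). DESeq2 called 1 member, C3, with an adjusted p of 0.048. By the criterion 10 members were lower, all of them followers of Alb, and 0 higher, against 1.79% lower and 1.96% higher among all genes. The calls were Fga, Fgb, Fgg and F10 (4 of 9 clotting factors), Kng1 and F12 (2 of 4), Serpina1 and Serpinc1 (2 of 6), Plg (1 of 6) and C3 (1 of 3). All but Serpina1 and C3 passed the filter of 0.1 FPKM only through control replicate 2 and treadmill replicate 3. Serpinc1 turned to 0.0283 on the log2 scale without treadmill replicate 3, and with the liver list as a covariate the log2 fold change was 0.75 for Serpinc1, 0.23 for Plg and 0.996 for F10. The count was 5 without treadmill replicate 3 (4 lower, with Vwf as the 1 higher) and 1 without treadmill replicates 2 and 3, the remaining member being Serpina1. It was 2 with the liver list as a covariate, 2 with DESeq2 and 25 with no filter. Of the 44 members that do not follow Alb, 0 met the criterion, and the median log2 fold change was -0.11 beside 0.0035 over all genes.

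For Serpina1, the 6 catgut 2 libraries had 0, 0.01677 and 0.06336 FPKM as lowest, median and highest, and all 6 lay below every treadmill library (exact permutation p = 0.00216, the smallest p that the arrangements of 12 libraries can give, adjusted p = 0.109 in edgeR). Every catgut 2 library and treadmill replicates 1 and 4, at 8 counts each, were at or below the limit of 12 counts, so the order among these is not resolved at this depth. The treadmill mean was at least 46.6-fold higher than that of catgut group 2 taken at the limit, and at least 5.4-fold without treadmill replicate 3. Treadmill replicate 2, at 215 counts, gives much of the second bound here too.

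Cd59 (chromosome 3, 94010475 to 94028621) had the smallest p in this comparison among the members that do not follow Alb. It had 60.67, 69.74 and 75.56 FPKM as lowest, median and highest in the treadmill group, 70.43, 88.96 and 105.1 FPKM in catgut group 2, 69.3, 83.52 and 87.9 FPKM in catgut group 1 and 65.97, 76.58 and 86.4 FPKM in the control group. The catgut 2 mean was 87.4 ± 11.8 FPKM and the treadmill mean 69.8 ± 5.54 FPKM (SD, n = 6), a ratio of 1.25 and a difference of 0.28 on the log2 scale (SE 0.0936, adjusted p = 0.268). In catgut group 2, 5 of 6 libraries lay above every treadmill library (exact permutation p = 0.0108), and 5 of 6 catgut 1 libraries did so too (log2 fold change 0.18, SE 0.0873, adjusted p = 0.756, exact permutation p = 0.0152). The ratio lies under the 1.5 of the criterion. Vwf had 5.77 ± 1.5 FPKM in catgut group 2 against 3.85 ± 1.42 FPKM in the treadmill group (log2 fold change 0.53, SE 0.241, adjusted p = 0.452), a ratio of 1.498 just short of the criterion. The endothelial list summed to a median of 69.39 FPKM for catgut group 2 against 62.29 FPKM for treadmill, and its part in the Vwf value was not tested.

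Between catgut group 2 and catgut group 1, which differ in the acupoint Fei Shu, 0 of 56 members had an adjusted p under 0.05 (0.00677% of all genes did, and DESeq2 called 0 members), with 3 members, Vtn, Plg and Vwf, at an unadjusted p under 0.05 (5.36%, against 3.26% of all genes). By the criterion 1 member was higher and 0 lower, against 0.9% higher and 0.345% lower among all genes. That member was Plg, which was at 0 in all 6 catgut 1 libraries and at most 0.045 FPKM in catgut group 2, every one at or below the limit of detection, so no fold is given. Vtn had 23.4 ± 3.81 FPKM in catgut group 2 and 17.9 ± 3.44 FPKM in catgut group 1 (log2 fold change 0.4, SE 0.146, adjusted p = 1). For Vtn, 5 of 6 catgut 2 libraries lay above every catgut 1 library (exact permutation p = 0.0519). The median log2 fold change was 0.0937 over the members and 0.007 over all genes.

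The total count per library was 45945938 to 78278080, and no pair of libraries held identical counts. The commonest count above 0 was 4, so 12 counts, the equivalent of 3 fragments, were taken as the limit of detection, which covers counting error only. Nothing in the labels names a sequencing batch or date, and comparisons rest on the spread between 6 rats per group.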

How the data were processed

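RNA sequencing of 24 quadriceps libraries, 6 in each group, was analysed from the table that the authors deposited. It gives for each gene a count, a whole number used as listed, and an FPKM value, which the authors normalized to transcript length and mapped fragments. The submitters' processing notes name HISAT2 2.0 and StringTie 1.3.0 without saying what each did, and the genome build and annotation are not given in the sources used here, so gene coordinates are those of the table. The commonest counts above 0 were 4 and 8, and 23.3% of all values were 0. Groups were taken from the labels, whose replicate numbers carry no stated pairing.

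Genes with a mean of at least 0.1 FPKM were tested with the two-sided quasi-likelihood test of edgeR 4.0.16 in R 4.3.3 on counts scaled by TMM, with the 12 libraries of each comparison fitted alone and Benjamini-Hochberg adjustment over all 14772 genes. The SE beside a log2 fold change was worked back from that fold change and the F statistic of the edgeR test. The second call rule was the criterion of the study on ratios of FPKM and unadjusted p. Single genes were also compared with a two-sided exact permutation test of log2(FPKM + 1) over all arrangements of the 12 libraries. Where every library of a group was at or below 12 counts (3 fragments), the fold was computed against that limit. Correlations used log2(FPKM + 1). The edgeR, limma and DESeq2 fits were tested on counts simulated for treadmill against control, with changes placed only in genes of higher count. The motif search was tested on made sequences. Promoters came from RefSeq (GRCr8). Other tools were limma 3.58.1, DESeq2 1.42.0, Python 3.11.15, numpy 2.4.6, pandas 2.3.3, scipy 1.17.1 and matplotlib 3.10.9.

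The members, role groups, marker lists, motifs and tests were chosen with earlier results of these data known. Genes named were, in each comparison, up to 8 members with the smallest p among those called, the 6 most abundant members, the 6 tested members with the highest and the 6 with the lowest correlation with Alb, and a list of main members of each role, with others named within their role, and single values of some members are not reported here. The relations with marker lists and the alternative without libraries above 10 FPKM of Alb were chosen after the data were seen. The other alternatives were no filter, a mean of at least 1 FPKM, median-ratio scaling, DESeq2, limma with a pseudocount of 1 or 0.1, exact permutation p, all 4 groups in 1 fit, the replicate number as a block, the level of chromosome Y genes or of the liver list as a covariate, counts divided by 4, each library left out, and for the split another correlation, limit, scale or reference.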

Additional observations from a re-analysis of the deposited data

Results flagged for a closer look

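Of 160 pairs of a named gene and a group, 42 held 1 library far from the other 5 by Dixon's gap test. Chance flags about 1 in 20 groups when values are normally distributed, and genes that vary together are flagged together. C5, C9, Fga, Fgg and Kng1 were at 0 in the other 5 control libraries, so that rate does not hold for them. In control replicate 2, 13 followers of Alb stood far above the other control libraries, namely C3 at 3.4, C5 at 0.252, C9 at 0.78, F10 at 1.32, F2 at 2.95, Fga at 2.48, Fgb at 3.77, Fgg at 3.49, Kng1 at 3.4, Plg at 1.98, Proc at 0.776, Serpina1 at 16.6 and Serpinc1 at 2.4 FPKM. In treadmill replicate 3, 12 followers stood far above the other treadmill libraries, namely C5 at 0.313, C9 at 0.834, F10 at 1.16, F2 at 4.57, Fga at 4.23, Fgb at 4.37, Fgg at 6.43, Kng1 at 4.61, Plg at 1.97, Proc at 0.856, Serpina1 at 25.9 and Serpinc1 at 2.96 FPKM. These are the 2 libraries with the highest Alb, 134.8 and 226.1 FPKM. The choice of followers rests on the same 2 libraries, so these flags are not evidence apart from Alb.

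Among members that do not follow Alb, control replicate 4 stood apart high for Cfb at 21.7, Pros1 at 3.54, Tfpi at 4.93 and Vwf at 8.72 FPKM, and treadmill replicate 2 for C3ar1 at 0.67, F3 at 20.1, Plau at 53.4 and Tfpi at 4.58 FPKM. In catgut group 1, replicate 5 was far above the others for Procr at 9.44 and Thbd at 17.4 FPKM (the genes of the protein C receptor and thrombomodulin), and replicate 2 for C3, a follower, at 0.407 FPKM. In catgut group 2, replicate 3 was far above for C3 at 0.549, C4a at 0.928 and Thbd at 12 FPKM, and replicate 2 for C5ar1 at 1.4 FPKM. Replicate 4 of that group was far below the others for Vtn at 15.7 FPKM, where the other 5 libraries lay between 24.3 and 25.9 FPKM, and replicate 6 for Cfb at 1.11 FPKM.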

How the results depend on the processing

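Of the results for single named genes under the alternatives, 3885 kept their direction and their side of the criterion, 158 lost it, 42 gained it and 13 changed direction. Most of these results were of genes that did not meet the criterion, so the 3885 does not measure how stable the calls were. All 158 losses and all 13 changes of direction fell on genes that met it. F3 in treadmill against control lost it in 14 of 25 settings. F2 in catgut 1 against treadmill kept it in 9 of 24. The number of members at an adjusted p under 0.05 was 0 in each comparison under every alternative except DESeq2 in catgut group 2 against treadmill, which called 1 (C3), and it was 0 to 0 with each library left out. The number meeting the criterion was 4 for treadmill against control, 12 for catgut 1 against treadmill, 10 for catgut 2 against treadmill and 1 for catgut 2 against catgut 1, in that order below, and the causes of the shifts were not tested.

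With no filter it was 7, 24, 25 and 3, since more genes were tested. With a mean of at least 1 FPKM, which leaves fewer genes, it was 1, 1 and 0 in the last 3 comparisons. DESeq2 gave 3, 2 and 0 there, limma with a pseudocount of 1 gave 0, 2 and 0, and limma with 0.1 gave 3, 4 and 0. Exact permutation p gave 2, 2, 2 and 0. The liver covariate gave 3, 2 and 0 in the last 3. Without libraries above 10 FPKM of Alb it was 7, 4 and 1 in the first 3. A fit over all 4 groups and counts divided by 4 each gave 0 for catgut 2 against catgut 1. With each library left out in turn it ran from 2 (without treadmill replicate 2 or control replicate 3, 5 or 6) to 15 (without control replicate 2), from 7 (without treadmill replicate 3) to 13, from 5 (without treadmill replicate 3) to 12, and from 0 (without catgut 2 replicate 2 or 6) to 2 (without catgut 1 replicate 2). Of the tested members, 12 followed Alb, 0 with Spearman's correlation, 2 without libraries above 10 FPKM of Alb, and 11 to 13 with each library left out.

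The 13 changes of direction were log2 fold changes of followers. Against treadmill in catgut 1, the liver covariate gave 0.77 for Serpinc1 and 0.69 for F2, leaving out treadmill replicate 3 gave 0.21 for F2 (from -2.4 without catgut 1 replicate 2), and leaving out the libraries above 10 FPKM of Alb gave 0.32 for Serpinc1, 0.24 for F2 and a fitted 2.6 for Kng1. In catgut 2, the liver covariate gave 0.75 for Serpinc1, 0.23 for Plg and 0.996 for F10, leaving out treadmill replicate 3 gave 0.0283 for Serpinc1 (from -3.06 without catgut 2 replicate 2), and leaving out the libraries above 10 FPKM of Alb gave 0.39 for Serpinc1 and a fitted 2.62 for Kng1 and 2.73 for F10. The last 3 fitted values for Kng1 and F10 are not sizes of a change, since the treadmill libraries left were at 0 and every catgut library was at or below the limit of detection.

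The replicate numbers did not pair the libraries. Deviations of same-numbered libraries from their group means correlated at -0.447 to 0.273 (median 0.0448, 36 pairs), against -0.373 to 0.502 for other pairs (median -0.00681), and 2 of 24 libraries correlated best with their own number. With the replicate block, 3 members met the criterion in treadmill against control, and for catgut 2 against catgut 1 it was 0.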
